A study of Mytilus galloprovincialis with 40 samples.

Results

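The clones described here are the cDNA probes of a mussel array whose relative mRNA abundance in the female digestive gland peaked in May or June. Of 1920 clones, 719 (37.4%) differed among the 12 months in a moderated F test of limma with Benjamini-Hochberg adjustment over all clones, and 132 of these (6.88% of all clones) had their highest fitted month in May or June. June was the highest month in 106 of them and May in 26. The clones were thus chosen by the F statistic and the fitted month levels of these same arrays, so their month levels are given as a description, without a test.

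The digestive gland of bivalves is the main organ of digestion, in which food particles are taken up and broken down within the epithelium of blind tubules. It also stores lipid and glycogen, and its reserves are drawn on while the gonad develops. In temperate and warm lagoons the feeding, growth and gamete release of mussels follow the season, and transcripts of digestive enzymes and of stress and metal-binding proteins are well known from this tissue. The clones carry only position codes in the files used here, and no code could be paired with a gene or a sequence, so each clone is named by its code and no function is given.

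*Mytilus galloprovincialis* females of one lagoon population were sampled in each month from May 2007 to April 2008. RNA from 2 animals, 1 in each dye (Cy3 and Cy5), was hybridised to each of 40 arrays, which set a month against the calendar month before it. The 4 steps from January to May had 4 arrays each and the 8 others 3 each, and May 2007 against April 2008 closed the loop. No animal was treated, and the study's methods state that each month's females came from the gonad stage most represented in it, so that month, gonad stage and the single year cannot be told apart. The labels do not say whether an animal was used on more than one array, so p-values measure the spread between these arrays, part of which may be technical. The defining genes of the tissue could not be checked, because the clones have no gene names here.

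Every value below is a log2 value. A ratio is that of the later over the earlier calendar month on an array, and a level is the fitted value of a month minus the clone's mean over the 12 months. In May/Apr the later calendar month, May 2007, was sampled before April 2008. The levels from January to April therefore come from animals sampled after those of May and June. Clones with at least 1 spot above background in both channels made up between 16.4% and 82.9% of all clones on an array, with a median of 42.7%. Duplicate spots correlated across clones with r between 0.43 and 0.96. Over the 132 clones the median r between replicate arrays was 0.81 where the dyes lay the same way (17 pairs) and 0.61 where they were swapped (31 pairs). One array, the first of Apr/Mar, opposed the 3 others of its step, with r of -0.80, -0.87 and -0.81 over the 132 clones. Over all clones these r were -0.73, -0.81 and -0.62, so the opposition was not limited to the 132. The direction of that array is not settled. It was used as labelled, and values with its sign turned are given where they bear on a result.

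The median level of the 132 clones was 0.44 in May, 0.80 in June, 0.49 in July and 0.15 in August. It was below the year mean from September, at -0.35, to December, also at -0.35, with its lowest value of -0.46 in November. In 123 clones the May level was above the clone's year mean, in 118 the June level, in 111 the July level and in 95 the August level, and 81 stood above it in all 4 of these months. November was the lowest month in 47 clones, December in 18 and September in 16.

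The difference between the highest and the lowest fitted month had a median of 1.48 over the 132 clones and ran from 0.38 to 6.81. It was at least 4 in 27 clones, between 2 and 4 in 22, between 1 and 2 in 34 and under 1 in 49. These size classes were set after the values were seen. All 27 clones of the largest class peaked in June, as did 21 of the 22 in the next, whereas 19 of the 49 in the smallest class peaked in May. The median difference of all 1920 clones was 0.63.

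**Figure D1:**
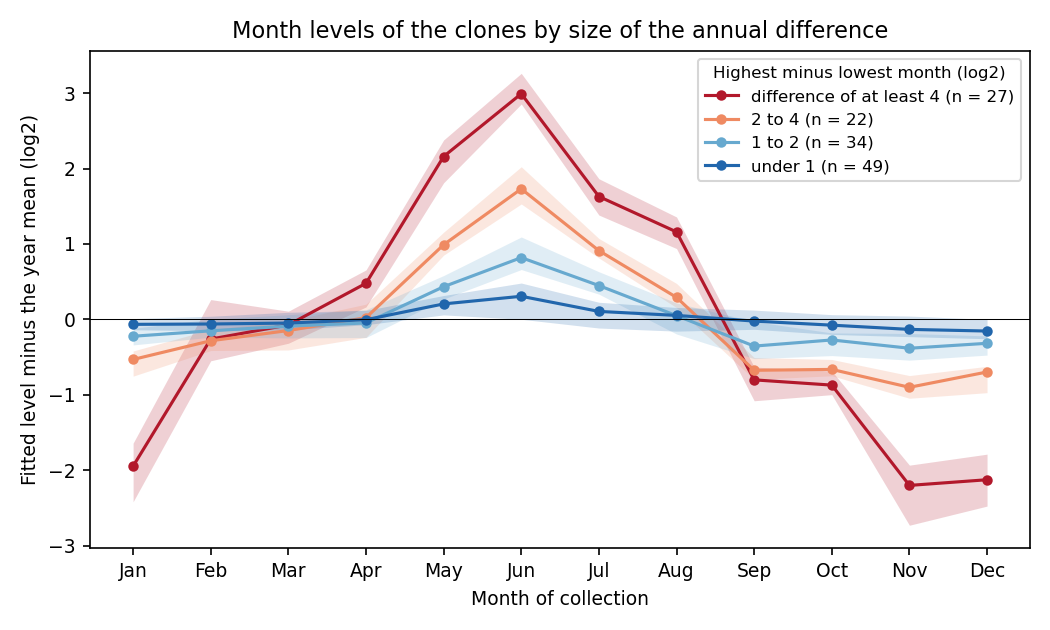
Fitted level of each month minus the clone's year mean (log2, vertical axis) against the month of collection, as the median (points and lines) and the interquartile range (bands) of the clones in 4 classes of highest-minus-lowest difference. The 27 clones with a difference of at least 4 went from a median of -2.20 in November to 2.99 in June, and the 49 clones with a difference under 1 had a median June level of 0.31.

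The median level of the 27 clones with the largest difference was -1.95 in January, -0.26 in February, -0.07 in March, 0.48 in April, 2.16 in May and 2.99 in June. It then came down to 1.63 in July, 1.16 in August, -0.80 in September, -0.87 in October, -2.20 in November and -2.13 in December. All 27 were above their year mean in each of May, June, July and August, and all 27 were below it in each month from September to January. The lowest month was November in 20 of them, December in 4 and January in 3. With the sign of the first Apr/Mar array turned the same medians were -2.10 in January, 0.63 in April and 3.14 in June.

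Myt01-006C06 had the largest F statistic of the 132 clones. In the 4 Feb/Jan arrays its ratio was 3.87, 3.79, 2.95 and 3.64, so February was far above January on each. In the 4 May/Apr arrays it was 0.73, 1.70, 1.22 and 1.12, and in the 3 Jun/May arrays 1.20, 2.71 and 0.37. All 7 of these ratios were above 0, the third Jun/May array being the lowest of its step. The way down was in steps: the ratio was -1.62, -0.78 and -0.92 in Jul/Jun, -2.77, -3.15 and -2.06 in Sep/Aug, and -1.01, -1.71 and -1.97 in Nov/Oct. All 9 of these values were below 0. Its fitted June level stood 6.03 ± 0.43 (SE) above January, its lowest month. None of its 7 January values was above background, so that fitted difference is not a measured size. With these values raised to at least the lowest signal above background on their arrays, June was 18.8-fold higher than January.

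Myt01-007H10 and Myt01-015H05 followed nearly the same course. The Feb/Jan ratios of Myt01-007H10 were 3.82, 3.91, 3.53 and 3.57, and its Sep/Aug ratios were -3.08, -4.10 and -3.15. The Feb/Jan ratios of Myt01-015H05 were 4.11, 3.87, 3.52 and 3.73, and its Sep/Aug ratios were -2.70, -4.04 and -2.68. Both clones were thus higher in February on all 4 arrays and lower in September on all 3. From February to March both were lower on all 4 arrays, with Mar/Feb ratios of Myt01-007H10 of -0.90, -1.05, -0.85 and -0.91. In Apr/Mar the ratios of Myt01-007H10 were -1.55, 2.02, 1.55 and 1.82, the first array being the one that ran against the others. The fitted difference between June and the lowest month was 6.58 ± 0.69 in Myt01-007H10 and 6.81 ± 0.74 in Myt01-015H05, the largest of all. In each of them 1 of the 6 values of the lowest month was above background, so these fitted sizes are uncertain. With dim values raised to at least the lowest signal above background on their arrays, the differences were 4.94 and 5.35.

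**Figure D2:**
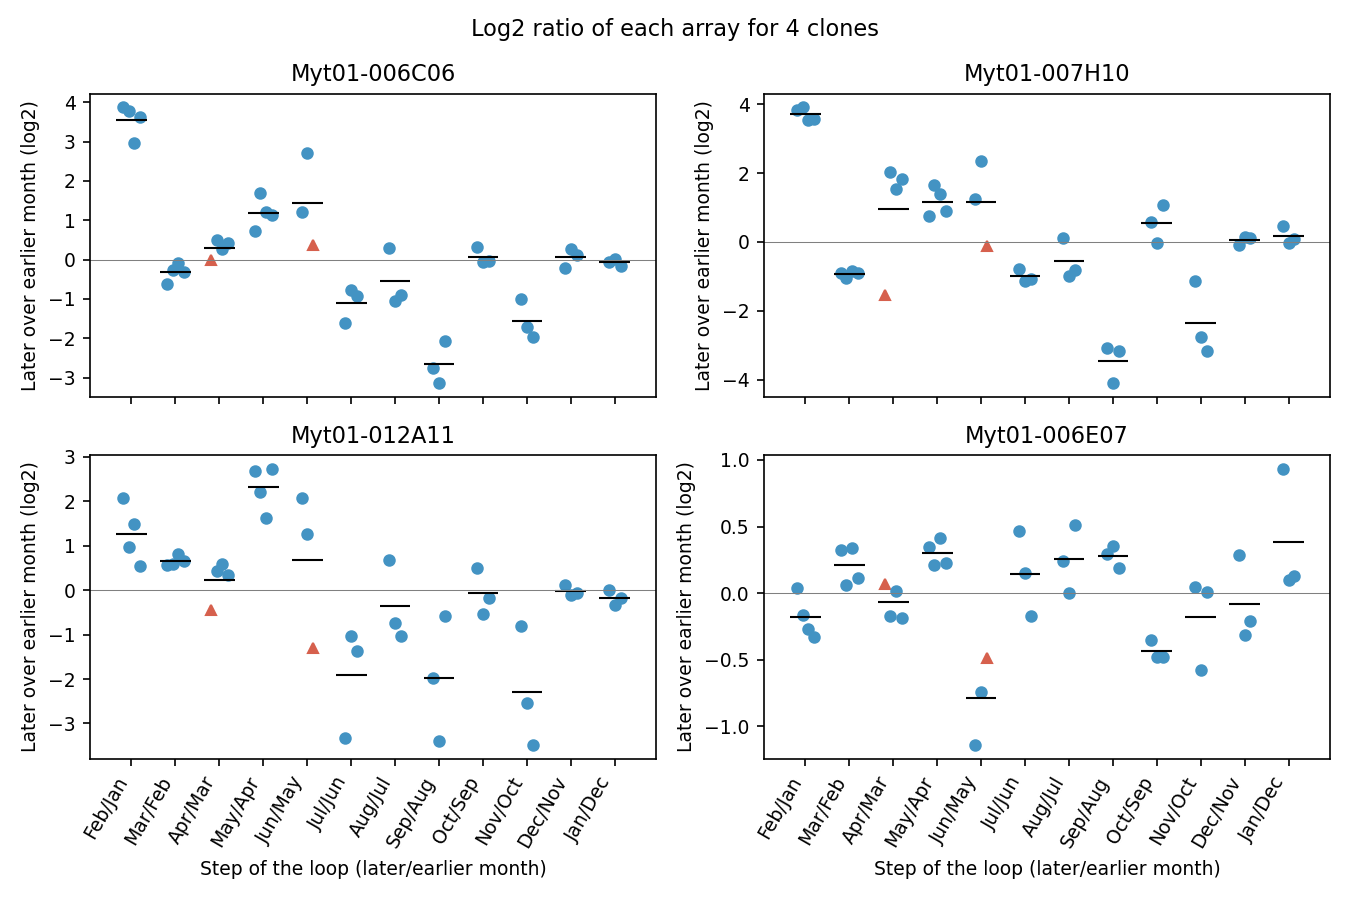
Log2 ratio of the later over the earlier month (vertical axis) on each array of the 12 steps (horizontal axis) for 4 clones, with 1 point for each array and a line at the mean of the step, where triangles mark the first Apr/Mar and the third Jun/May array. Myt01-006C06 and Myt01-007H10 were highest above 0 in Feb/Jan, Myt01-012A11 in May/Apr, and Myt01-006E07, a clone that peaked in May, was below 0 on all 3 Jun/May arrays.

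The size of these differences is limited from below by the background. A value was taken as above background where the foreground mean exceeded the local background mean by 2 SD of that background. In June all 6 values of each of the 27 clones were above it. In the lowest month, 11 of the 27 had no value above background, 16 had some and 0 had all. For the 11, the approximate lower bound of the fold ran from 5.73 in Myt01-006H04 to 30.5 in Myt01-013D02 and was under 16 in 6 of them. The median fitted difference of the 27 was 5.20, and 4.77 with these 11 at their bound. For the second median the 16 others stayed at their fitted difference, although part of their lowest-month values were also below the limit. Without background correction 14 of the 27 still reached a difference of 4. Over all 132 clones, 24 had no value above background in their lowest month, and the median of 1.48 was 1.30 with these at their bound. In 89 others some but not all values were above it, and these stayed at their fitted difference.

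Among the 27, the difference between January and June was divided unequally between February and May. The fitted difference of February over January ran from 0.50 in Myt01-013G01 to 3.87 in Myt01-015H05. That of May over April ran from 1.07 in Myt01-007F12 to 2.43 in Myt01-012A11. Its size depended on the May/Apr arrays. Without them the median levels of the 27 were 0.007 in April and 2.42 in May, against 0.48 and 2.16 with them. The median of June over April was 3.52 in place of 2.56. Passing of the May mark used below was not counted under that fit. Taking 2 as a mark for both, set after the values were seen, 9 clones passed it in February only, 9 in May only, 1 in both and 8 in neither. The clone that passed in both was Myt01-005G02, with Feb/Jan ratios of 2.72, 2.15, 2.28 and 1.29 and May/Apr ratios of 2.75, 2.21, 1.41 and 2.77. The February values were spread without a wide gap at the mark, the nearest being 1.96 and 2.16.

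Myt01-012A11 and Myt01-013G01 were 2 clones with a larger difference in May than in February. The May/Apr ratios of Myt01-012A11 were 2.69, 2.22, 1.63 and 2.73, against 2.07, 0.97, 1.48 and 0.55 in Feb/Jan. The lowest of its May/Apr ratios was below the highest of its Feb/Jan ratios, so the arrays of both steps overlapped. In Myt01-013G01 they did not: its May/Apr ratios were 2.31, 1.71, 1.47 and 2.34, and its Feb/Jan ratios were 0.31, 0.28, 0.52 and 0.02.

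The 10 clones with a February difference of at least 2 were Myt01-005G02, Myt01-006C06, Myt01-007F12, Myt01-007H10, Myt01-010C02, Myt01-012D02, Myt01-013H05, Myt01-015B01, Myt01-015C07 and Myt01-015H05. Their median February difference was 2.52 and their median May difference 1.24. In the 17 others these medians were 1.43 and 2.11. The division changed with the background correction, and the cause was not tested. Without background correction the number of clones with a difference of at least 4 that passed the February mark was 3, and with plain subtraction it was 20.

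**Figure D3:**
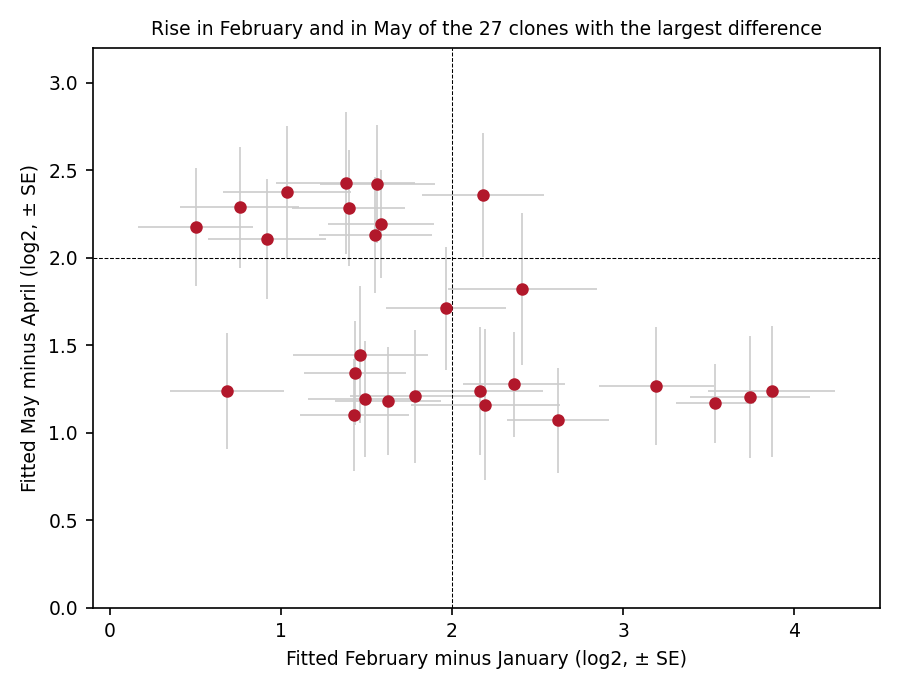
Fitted difference of May over April (vertical axis) against that of February over January (horizontal axis), both log2 with SE bars, for the 27 clones with the largest annual difference, with dashed lines at 2. The 9 clones in the upper left had a May difference above 2 and a February difference under 2, and the 9 in the lower right the opposite.

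The step into June rested on arrays that did not agree. The median Jun/May ratio of the 27 clones was 1.16 on the first array, 1.92 on the second and -0.16 on the third, and 26, 27 and 6 of the 27 clones were higher in June on them. The fitted median of June over May was 0.89. Without the third array it was 1.56 and without the second 0.58, and under each of these 2 fits June stayed the highest month in all 27. The first and the second array had opposite dye orientations, and the second and the third the same. The first Jul/Jun array, the only one of its step with the later month in Cy5, stood apart in size. Its median ratio was -2.89 against -0.88 and -1.11 on the others. Still, all 27 clones were lower in July on every array, as were 15.8% of all clones. Leaving out any single array kept all 27 among the clones with a called F test that peaked in May or June.

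The fall after summer came in 2 stages with a pause between them. In Sep/Aug the median ratio of the 27 was -2.07, -2.96 and -0.78 on the 3 arrays, and all 27 were below 0 on each, as were 20.6% of all clones. In Oct/Sep it was -0.09, -0.25 and -0.09, with 12, 1 and 9 of the 27 above 0. In Nov/Oct it was -0.54, -1.81 and -2.54, with 2 clones above 0 on the first array and none on the others. The size of both falls therefore differed by over 1 between arrays of the same step, while their direction was shared. In both steps the smallest fall was on the only array with the later month in Cy5. In Aug/Jul the median was 0.06 on the only such array and -0.92 and -0.99 on the others. The reason for these differences was not tested. In Dec/Nov and Jan/Dec the medians of the 6 arrays lay between -0.09 and 0.07.

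The 22 clones with a difference between 2 and 4 had the same months above and below their mean, with a smaller February step. Their median level was -0.53 in January, -0.28 in February, 0.99 in May, 1.73 in June and 0.91 in July. It was -0.68 in September and -0.90 in November, and 0 of the 22 stood above the year mean in September, October or November. The largest of them was Myt01-014A08, with a difference of 3.90, followed by Myt01-014G03 with 3.83. The 6 November values of Myt01-014G03 were all below the background limit, and its approximate lower bound for June over November was 6.09-fold. The exception among them was Myt01-009C06, which peaked in May and had its lowest month in October, with a difference of 2.44 ± 0.85. Its 4 May/Apr ratios were all above 0, from 1.55 to 2.13. Its other arrays disagreed, with Jun/May ratios of -1.58, -0.90 and 0.86 and Jul/Jun ratios of -2.31, 1.49 and 2.22. Without the May/Apr arrays it was no longer among the clones called with a peak in May or June.

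The 34 clones with a difference between 1 and 2 had a median June level of 0.82 and a median November level of -0.38. In the 49 clones with a smaller difference these medians were 0.31 and -0.13. In this last class the June level was above the year mean in 37 of 49 clones, the January level in 15 and the November level in 15, so the winter trough was not shared by all. The smallest differences were 0.38 ± 0.13 in Myt01-006A03, 0.48 ± 0.12 in Myt01-005F08 and 0.51 ± 0.15 in Myt01-013B03. The first 2 of these peaked in May and the third in June.

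Of the 132 clones, 30 stood above their year mean in September, 19 in October, 17 in November and 18 in December. The 3 with the highest level in October to December relative to their year mean were Myt01-015D05, Myt01-011A09 and Myt01-017D09. Myt01-015D05 was variable between arrays: its Oct/Sep ratios were 1.33, -0.52 and 1.52, its Sep/Aug ratios 1.02, -0.71 and -1.32, and its Nov/Oct ratios -1.08, -0.85 and -1.36. Only the last of these steps had the same sign on all arrays. Its June level exceeded October by 0.14 ± 0.45, so these 2 months did not differ beyond their error. Myt01-011A09 stayed above its year mean from May to October, at 0.31 in October. In Myt01-017D09 the lowest month was September, and its Nov/Oct ratios were 0.21, 0.90 and 0.59, above 0 on all 3 arrays.

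How sharply the peak was placed in May or June differed between the 2 months. In 61 of the 106 clones highest in June, the June level exceeded that of the highest month outside May and June by more than 2 SE. This held for 1 of the 26 clones highest in May. The highest month was chosen from these same levels, so the gaps are above 0 by choice. The SE does not allow for that choice, and the counts are a description, not a test. The month next to June was July in 50 of the 106 and May in 46. For the clones highest in May the next month was March, June or September in 5 each and November in 3. The smallest gaps were 0.01 ± 0.13 in Myt01-002H07, between May and March, and 0.02 ± 0.11 in Myt01-010B05, between June and July.

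The 26 clones highest in May formed no common summer profile. Their median level was 0.14 in March, 0.12 in April, 0.40 in May, -0.04 in June and -0.10 in July. In 14 of them June was below the year mean, and in 5 June was the lowest month of the year. In 5 others the June level was at least 0.4 above the mean. Of the 26, 17 were higher in May on all 4 May/Apr arrays and 19 were lower in June on all 3 Jun/May arrays, against 17.6% and 18.6% of all clones. Since the choice of May as the highest month fixes these directions, the counts are a description. Their median difference was 0.76, and the largest was that of Myt01-009C06, whose arrays disagreed.

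**Figure D4:**
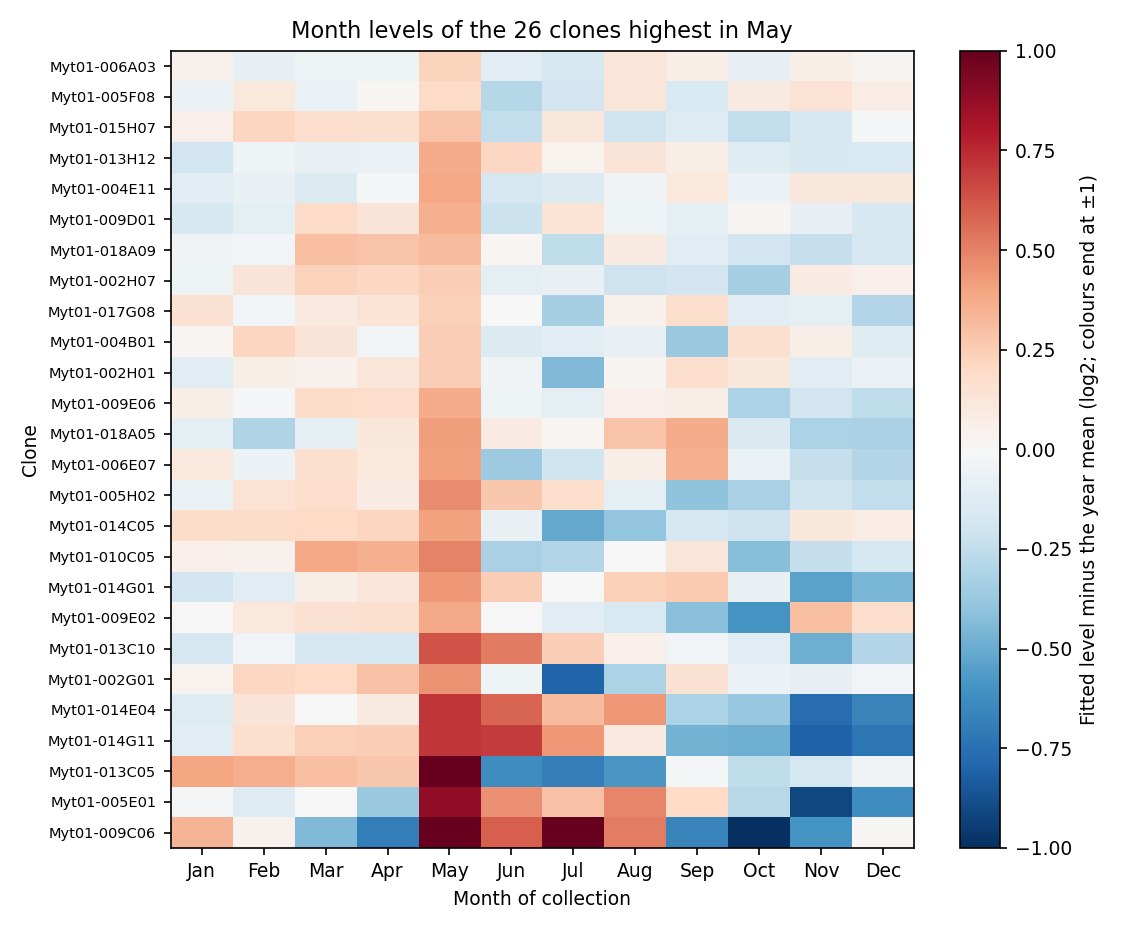
Fitted level of each month minus the clone's year mean (log2, colour, which ends at 1 in either direction) for the 26 clones highest in May (rows, ordered by highest-minus-lowest difference) in the 12 months (columns). May is red in all rows, while June is below the mean in 14 rows and July is the lowest month in 7.

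Myt01-006E07 had the largest F statistic among the 26. Its Jun/May ratios were -1.14, -0.74 and -0.48 and its May/Apr ratios 0.35, 0.21, 0.42 and 0.23, so that May was above both neighbours on all 7 arrays. June was its lowest month, 0.77 ± 0.13 below May, but September was within 0.06 ± 0.22 of May. Myt01-010C05 behaved alike from May to June, with ratios of -1.11, -0.80 and -0.64, and its lowest month was October. Myt01-002G01 was lower in June on all 3 arrays, with -0.55, -0.18 and -0.95, and lower again in July, with -0.95, -0.45 and -1.07. Its fitted July level was 1.25 ± 0.20 below May. Myt01-009E02 differed from these in autumn, when its Nov/Oct ratios were 0.41, 1.23 and 1.04 and November came within 0.08 ± 0.22 of May.

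The members nearest to the threshold of the F test were Myt01-014C05, Myt01-009E06 and Myt01-013E11, with limma adjusted p of 0.044, 0.042 and 0.041 and differences of 0.92, 0.69 and 0.63. Just outside, with June or May as the highest month, were Myt01-005C10, Myt01-015E02 and Myt01-014A10, with adjusted p of 0.052, 0.053 and 0.063 and differences of 0.69, 0.59 and 0.60. Myt01-014C05 left the called set in 24 of the 40 fits that each omitted 1 array, Myt01-009E06 in 19 and Myt01-013E11 in 14. Of the 132 clones, 85 were called with May or June as the highest month in all 40 such fits, 78 of the 106 highest in June and 7 of the 26 highest in May.

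Counted by step, with an adjusted p under 0.05 in limma and log-odds above 0, the 132 clones had the most calls in May/Apr. May/Apr had 4 arrays, whereas each step from Jun/May to Nov/Oct had 3, so the counts do not rank the steps by size. The median ratio of the 132 was 0.43 in May/Apr and -0.47 in Jul/Jun. In May/Apr 40 were called higher, where 2.4% of all clones were, and 0 lower, where 4.06% were. In Feb/Jan 23 were called higher (2.24% of all clones) and in Jun/May 19 higher and 7 lower (1.98% and 1.93%). On the way down 25 were called lower in Jul/Jun (1.46%), 17 in Aug/Jul (3.23%), 28 in Sep/Aug (3.12%) and 12 in Nov/Oct (3.02%). In at least 1 step 96 were called, against 26.5% of all clones. For the mean of May to August against the other months 62 were called higher (3.54%) and 0 lower (0.833%). The rule used these contrasts, so nothing is read from the shares. In all, 68 clones of the array were called higher in May to August, and the 62 included all 27 clones with the largest difference.

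The dye was a measure that the rule did not use. A dye intercept, fitted beside the months, was called in 14 of the 132 clones (10.6%), where 8.96% of all clones were called by the same limma test. Among the 14, it was largest in Myt01-006H09, at 0.28. It was called in 0 of the 27 clones with the largest difference, although their intercepts were not small. Their median absolute intercept was 0.17, against 0.054 in all clones, and it was above 0 in 25 of the 27. Their median residual SD was 0.74, against 0.27 in all clones. With print-tip loess 2 of the 132 were called, and 36 of all clones in place of 172. The intercept was above 0 in 102 of the 132 clones and in 837 of the 1920, and the later month was in Cy3 on 25 of the 40 arrays. With the intercept in the model all 132 clones kept a called F test and a peak in May or June.

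What the month fit left over still moved together in the clones with the largest difference. The residuals of 2 clones over the 40 arrays correlated with a median r of 0.71 over the 351 pairs among the 27, and 100% of these pairs were above 0. In the classes of smaller difference the median was 0.52, 0.24 and 0.02, in the 26 clones highest in May 0.08, and over all pairs of the 1920 clones 0.003. Within the 10 clones with the larger February difference it was 0.72, within the 17 others 0.78 and between the sets 0.67. With a dye intercept the median among the 27 was 0.73. The pairs share arrays, animals and background correction, and the codes do not show whether some of the clones carry the same transcript. Differences between single animals of a month and differences between arrays cannot be told apart here.

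**Figure D5:**
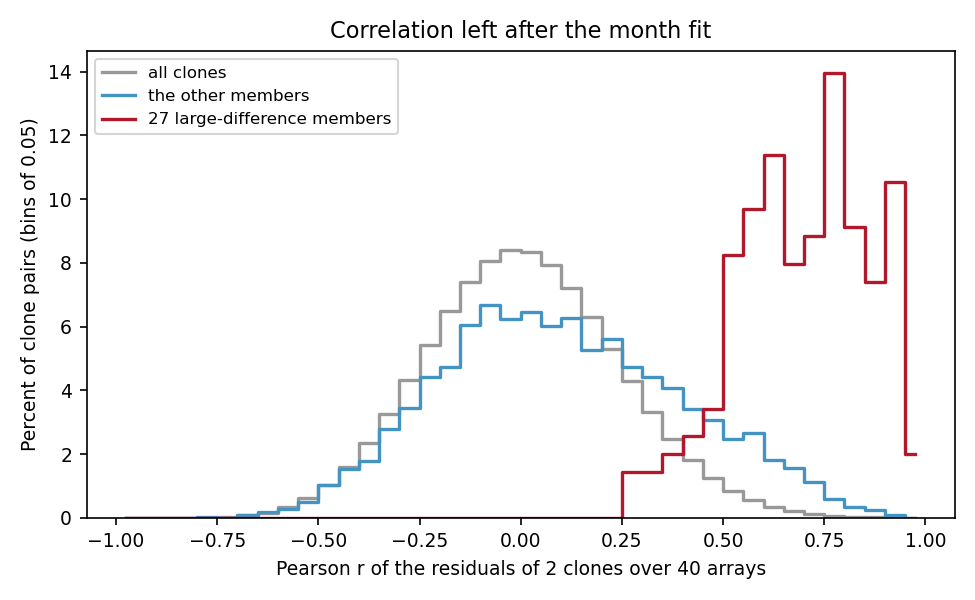
Distribution of Pearson's r between the residuals of 2 clones over the 40 arrays after the month fit (horizontal axis), as the percent of clone pairs in each bin of 0.05 (vertical axis). All pairs of the 27 clones with the largest difference lie above 0 with a median of 0.71, while the pairs of all 1920 clones centre on 0.003.

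The clones with the largest difference were brighter than most. The mean log2 intensity over all arrays had a median of 9.19 in the 27 clones, of 7.89 in all 132 and of 7.31 in all 1920. It ran from 6.40 to 10.2 over the 132, the brightest being Myt01-009E06, Myt01-015H05 and Myt01-010C05. Since the intensity averages over the months, a high June level adds to it. The 2 spots of a clone differed by a median of 0.12 in the 132 clones and of 0.13 in all clones.

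The 132 clones were spread unevenly over the 20 clone plates. Plates 13, 14 and 15 held 19, 17 and 17 of them, together 53 (40.15%), while these plates held 15% of all clones and 18.92% of those with a called F test. Plates 1, 3 and 20 held none, although 48 and 33 clones of plates 1 and 3 had a called F test. The 27 clones with the largest difference came from 11 plates, 5 each from plates 13 and 15. What the plates have in common, such as a cDNA library, is not given in the sources used here.

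Of 3 sets with neighbouring peaks, the clones of May and June had the widest median difference. The 56 clones with a called F test that peaked in July had a median difference of 0.97. The 115 that peaked in February to April had one of 1.03, against 1.48 here. The median was 1.77 in the 106 clones highest in June but 0.76 in the 26 highest in May, below both other sets. The largest fold was 6.18 in the July clones and 44.6 in the February to April clones. No test was made, since the months chose all 3 sets. The July clones had a median level of -0.10 in May and 0.23 in June, and the clones highest in June one of 0.56 in May and 1.22 in June. The median residual correlation was 0.03 in the July clones and 0.05 in the February to April clones, against 0.15 in the 132. It was 0.27 in the clones highest in June and 0.08 in those highest in May.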

How the data were processed

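The deposited scanner files hold spot intensity values (mean foreground and mean, median and SD of the local background, per dye), which the authors read from the scanned slides without normalization. The authors also deposited log2 ratios made with limma (version not given in the sources used here) after background correction and loess. Those log2 ratios were recomputed from the intensities in 38 of 40 columns, to within 5.00e-05; the 2 others held sign-turned values of another array and were left out of that alternative. Column medians of the deposited log2 ratios lay between -0.017 and 0.017.

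Intensities of all 40 arrays were corrected with normexp (offset 50, median background) and normalized by loess fitted to the clone spots, without scaling between arrays, and duplicate spots were averaged. A loop model (+1 later, -1 earlier month, January as reference) was fitted in R 4.3.3 by limma 3.58.1 (residual degrees of freedom 29, prior 3.68). Clones were called at a Benjamini-Hochberg adjusted p under 0.05 over all 1920 clones. Step calls also required log-odds above 0. The fit was tested on simulated data. No spot reached the scanner limit, and precision is limited by the number of arrays. Bounds for lowest months with values below the background limit used loess- and Aquantile-normalized channel values. Values under the lowest signal above background on their array were raised to it. A clone's own undetected signal may exceed that lowest signal, so the bounds are approximate. Such bounds are open to dye bias, since dyes were not balanced.

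Members and lists were chosen with earlier results of these data known. Named clones were those with the largest F (8, and 5 among those highest in May), the 5 largest and 3 smallest differences, the 3 brightest, the 3 highest in October to December, 3 members and 3 non-members nearest the threshold, and the 2 with the smallest gap to another month. Others named were chosen after their values were seen. Alternatives were the background correction, the normalization, a filter on dim clones, a dye intercept, the replicate number as a block, array weights, the authors' log2 ratios, the first Apr/Mar array turned, the loop without May/Apr, a threshold of 0.01 and each array left out. Those run on size classes and single steps were added after the data were seen. Same-numbered arrays of different steps had residuals with a median r of 0.02 over 204 pairs (47 above 0.1), so the numbers were not taken as pairs.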

Additional observations from a re-analysis of the deposited data

Results flagged for a closer look

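In the 4 steps with 4 arrays, 108 sets of 4 values were tested for 1 value far from the others (gap over range above Dixon's critical value), for the 25 named members and for the medians of the 132 clones and of the 27 with the largest difference, and 14 passed. Chance passes about 1 in 20 such sets, and the sets share arrays, so the passes are not independent.

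The first Apr/Mar array accounted for 8 of them. The median of the 132 clones was -0.117 on it, against 0.0565 to 0.0905 on the 3 others, and the median of the 27 was -0.715 against 0.616 to 0.752. On the same array the ratio was -1.55 in Myt01-007H10, -1.79 in Myt01-015H05, -1.43 in Myt01-015B01, -0.849 in Myt01-005G02 and -1.90 in Myt01-013H05, each of which was above 0 on the 3 others, and 0.469 in Myt01-009E02, which was below 0 on them.

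In Mar/Feb, the fourth array stood apart in Myt01-015H05, at -0.238 against -1.12 to -0.983, and in Myt01-013H05, at -0.489 against 0.078 to 0.124. The first Mar/Feb array stood apart in Myt01-005F08, at 0.007 against -0.317 to -0.265. The others were Myt01-010C05 on the first Feb/Jan array, at 0.185, Myt01-018A05 on the second May/Apr array, at 0.171, and Myt01-010B05 on the third May/Apr array, at 0.575.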

How the results depend on the processing

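Plain subtraction gave 17 clones highest in May, a median difference of the 132 of 1.82 and 20 large clones (difference of at least 4) with a February difference of at least 2. No background correction gave 17 highest in May, 14 large clones (all 14 among the 27), 3 with the February difference and a median of 0.945. Leaving out dim clones left 72 members (70 of the 132), 58 highest in June and 14 in May. The number highest in May was 12 with median centring, 47 with array weights, 58 without the May/Apr arrays and 11 at an adjusted p under 0.01. Print-tip loess left 2 members with a dye intercept. The causes were not tested, except that the filter and the threshold leave fewer clones by construction. With the replicate number as a block the count was 135, with 28 highest in May, and all 132 were kept; among the 28 named clones the block changed only the call of 2 non-members, which then passed. With the first Apr/Mar array turned the count was 148, of which 127 were among the 132. Leaving out 1 array gave 124 to 145 members, 95 to 118 highest in June, 21 to 37 in May, 118 to 131 of the 132 kept, 25 to 29 large clones (25 to 27 of the 27), 9 to 11 with the February difference, a median difference of 1.39 to 1.54 and a median residual r of 0.13 to 0.16 (0.69 to 0.74 in the 27). The difference of each named clone was measured between the highest and lowest months of the main fit. None changed sign under these settings, but that choice of months made a change of sign unlikely in advance. The filter on dim clones kept only 20 of the 28 named clones. Median centring ended the most calls, 10 of the 25 among the named members. Dim signal limits the size of the largest differences, as 24 clones had no value above background in their lowest month.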
